A study of Mus musculus with 8 samples.

Results

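The keratin genes are the genes whose symbol in the count files is Krt followed by digits alone, a rule that found 46 of the 38115 genes listed. They were measured by RNA sequencing in 8 tumors grown from Myc-CaP, a murine prostate cancer cell line that came from a prostate tumor of a Myc transgenic mouse. Myc-CaP cells of an androgen sensitive (AS) or a castrate resistant (CR) line had been injected into the anterior prostate lobes of male FVB mice, which were intact or had been castrated by surgery beforehand. The tumors comprised 2 primary and 2 metastatic tumors of each phenotype and are called primary AS1 and AS2, metastatic AS1 and AS2, primary CR1 and CR2, and metastatic CR1 and CR2. All 8 carried the Myc-CaP background, so no tumor without the Myc transgene and no normal prostate was compared. Each phenotype was a single cell line, so phenotype and line cannot be told apart. The age of the mice, the organ of each metastasis and which tumors grew in castrated mice are not given in the sources used here. The metastases are labelled as matched, without the primary tumor that each matches. Tumors from the same mouse may therefore have been counted as separate samples, and p-values measure the spread among these 8 tumors. The numbers 1 and 2 are names and carry no pairing.

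Keratins are the intermediate filament proteins of epithelial cells, and a filament is built from a type I and a type II keratin in equal parts. In the prostate, luminal secretory cells are known for Krt8 with its partner Krt18, together with Krt19. Basal cells are known for Krt5, Krt14 and Krt15, and stratified or squamous epithelia for keratins such as Krt1, Krt10, Krt4, Krt13 and Krt16. The 46 members were 3 luminal keratins, 3 other keratins of simple epithelia, 3 basal, 15 squamous, 12 hair and nail, 8 root sheath and 2 other keratins. Of these, 26 are type I and 20 are type II, and 25 lie on chromosome 11 and 21 on chromosome 15 in mm10. Krt6a and Krt6b, keratins of wounded and hyperproliferative epithelium, carry a letter and fell outside the rule, and their values are given beside those of the squamous keratins.

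Krt18 is the type I gene that lies among the type II genes on chromosome 15. The ends of Krt8 (chr15:101996698-102004482, minus strand) and Krt18 (chr15:102028180-102032027, plus strand) were 23697 bases apart. Their start regions are shown because these neighbours, whose proteins pair in a filament, had the most unequal RNA levels among the luminal keratins. Each run is the window of 300 bases around the RefSeq start on GRCm38.p6, most of it upstream of that start, on the strand of the gene. Capitals mark the matches, on either strand, to 3 short motifs, namely the TATA box TATAAA, the GC box GGGCGG and the AP-1 site TGANTCA.
Krt8, chr15:102004293-102004592, minus strand: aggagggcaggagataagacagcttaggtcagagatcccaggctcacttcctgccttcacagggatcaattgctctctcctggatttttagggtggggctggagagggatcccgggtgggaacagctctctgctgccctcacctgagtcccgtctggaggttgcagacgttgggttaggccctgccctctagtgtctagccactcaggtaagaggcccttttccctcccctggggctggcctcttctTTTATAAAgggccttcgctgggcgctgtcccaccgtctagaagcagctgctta
Krt18, chr15:102027966-102028265, plus strand: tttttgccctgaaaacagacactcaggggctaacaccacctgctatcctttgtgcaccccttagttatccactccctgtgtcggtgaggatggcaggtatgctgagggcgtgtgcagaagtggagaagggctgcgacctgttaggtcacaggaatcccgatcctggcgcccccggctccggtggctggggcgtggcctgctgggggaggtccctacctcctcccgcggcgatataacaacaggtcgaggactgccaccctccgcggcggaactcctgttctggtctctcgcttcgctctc
The Krt8 run held TATAAA on both strands in overlapping positions, and the Krt18 run held no match. By the gene coordinates given above, which are from GENCODE M21, most of the Krt8 run and its TATAAA matches lie inside the gene. The Krt18 run held 17 CpG dinucleotides and that of Krt8 held 6. A run was found for 33 of the 46 members. Of these 33, 17 (51.5%) held TATAAA, 2 (6.06%) held GGGCGG and 1 (3.03%) held TGANTCA. Among all 32851 start regions of the same length the shares were 13.6%, 35.7% and 7.81%. The median number of CpG dinucleotides was 5 in the members and 7 in all start regions. A match is a description of the letters only, and a window without a match says nothing of the factor.

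Total counts ranged from 20905806 to 91886163 per tumor and were higher in the AS tumors (61237285 to 91886163) than in the metastatic CR1, primary CR2 and metastatic CR2 tumors. Mitochondrial and ribosomal RNA genes with Lars2 took 14.5% to 19.0% of the counts in AS tumors, 5.03% in primary CR1 and 23.1% to 37.4% in the other CR tumors. The labels give no batch or date. The code numbers in their titles, which they do not explain, run in a separate block for each phenotype. Primary CR1 stood apart in keratin RNA, with 1767 normalised counts (CPM) over the 46 genes against 372 to 821 in the other tumors, and results that rest on it are given with and without it. CPM here are counts scaled by library size after TMM correction. In whole tumors, fewer cells of a type and less RNA per cell cannot be told apart.

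A few keratin genes carried nearly all keratin RNA. Krt4, Krt7, Krt8, Krt15, Krt78 and Krt80 were the 6 members with over 100 counts in every tumor. Of the others, 34 members stayed under 100 counts in every tumor, 25 were listed at 0 in at least 1 tumor, and 7 (Krt1, Krt12, Krt27, Krt28, Krt39, Krt71 and Krt74) did not exceed 3 counts in any tumor. To compare genes, CPM were divided by the length of the exons in kilobases. The plot of levels by gene shows that within the luminal, basal and squamous classes some members were abundant and others nearly absent.

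**Figure D1:**
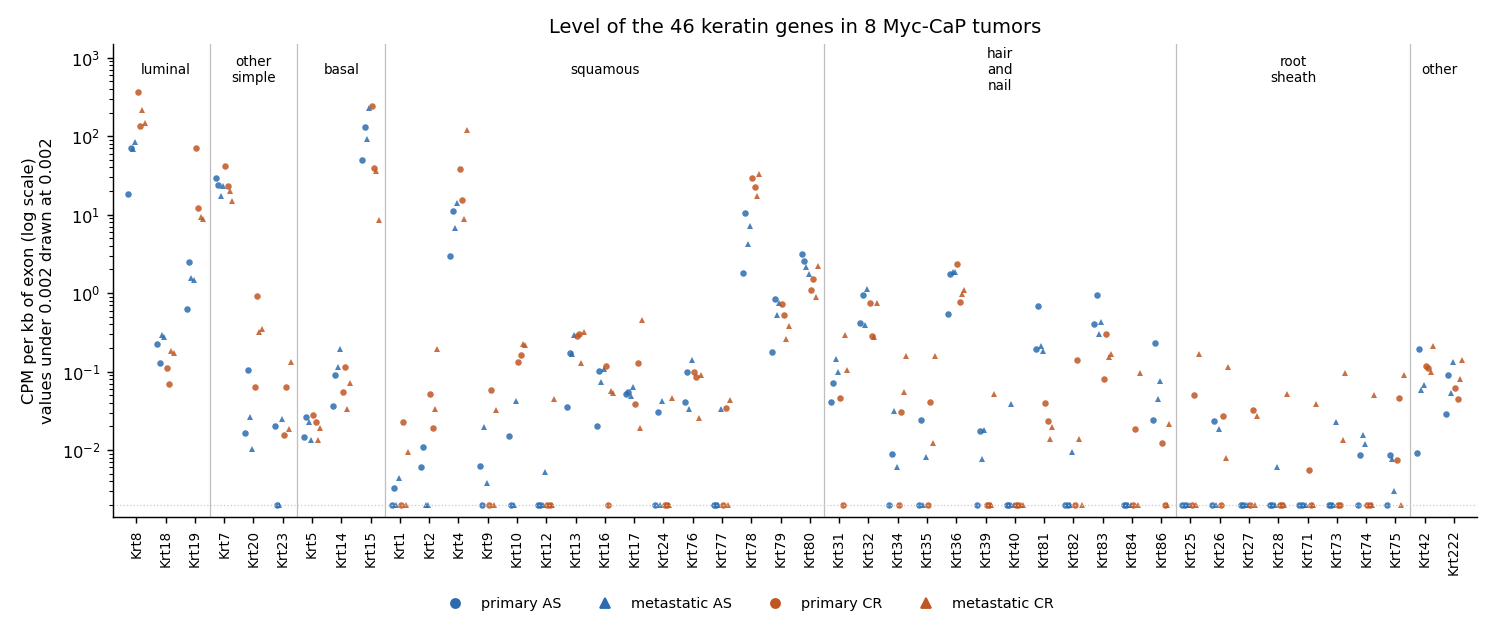
Level of each of the 46 keratin genes (x axis, grouped by class) in CPM per kilobase of exon (y axis, log scale), with 1 point per tumor. Circles are primary and triangles metastatic tumors, blue AS and orange CR. Krt8, Krt15 and Krt7 exceed 8 CPM per kilobase in all 8 tumors, while Krt18, Krt5 and Krt14 stay under 0.30 in all 8.

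Among the luminal keratins, Krt8 was abundant and its filament partner Krt18 was nearly absent. The Krt8 level per length was 18.6 to 363 CPM per kilobase, and that of Krt18 was 0.0690 to 0.291 CPM per kilobase. Krt8 thus exceeded Krt18 by 83.7-fold in primary AS1 and by up to 3310-fold in primary CR1. In counts, Krt18 had 20 in primary AS1, 13 in primary AS2, 33 in metastatic AS1, 41 in metastatic AS2, 13 in primary CR1, 2 in primary CR2, 9 in metastatic CR1 and 6 in metastatic CR2. By the methods of the study, reads were kept only if they had a single location in the genome. Of all windows of read length in the longest Krt8 transcript, 38.6% matched another annotated transcript with up to 2 mismatches, nearly all of them the pseudogene Krt8-ps. For Krt18 the share was 0.15%. Repeats outside annotated transcripts were not searched.

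Krt8 stood at 36.4 CPM in primary AS1, 139 in primary AS2, 133 in metastatic AS1 and 168 in metastatic AS2, and at 710.4 in primary CR1, 264 in primary CR2, 419 in metastatic CR1 and 287 in metastatic CR2. Each CR tumor lay above every AS tumor. Krt19, a type I keratin of simple epithelia that can pair with Krt8, stood at 1.15 CPM in primary AS1, 4.66 in primary AS2, 2.89 in metastatic AS1 and 2.74 in metastatic AS2. In CR tumors it stood at 132 in primary CR1, 22.3 in primary CR2, 17.5 in metastatic CR1 and 16.3 in metastatic CR2, again with no overlap. Even so, Krt8 per length exceeded Krt19 by 5.09-fold in primary CR1 and by 11.3-fold to 57.9-fold in the other tumors.

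Of the other simple keratins, Krt7, the type II keratin of ducts and urothelium, was expressed in every tumor, and Krt20, known from intestine and urothelium, was rare. Krt7 stood at 208 CPM in primary AS1, 170.1 in primary AS2, 123 in metastatic AS1 and 163 in metastatic AS2, and at 292 in primary CR1, 163 in primary CR2, 143 in metastatic CR1 and 104 in metastatic CR2. Values of both phenotypes overlapped. Krt20 had 2, 14, 4 and 2 counts in primary AS1, primary AS2, metastatic AS1 and metastatic AS2, and 10, 36, 21 and 16 counts in primary CR1, primary CR2, metastatic CR1 and metastatic CR2.

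The basal class was Krt15 almost alone. Krt15, a type I basal keratin, reached 8.62 to 244 CPM per kilobase. Krt5 and Krt14, the pair that forms most filaments of basal cells, stayed at 1 to 5 and 2 to 35 counts per tumor. Krt15 stood at 88.7 CPM in primary AS1, 232 in primary AS2, 164 in metastatic AS1 and 408 in metastatic AS2. In CR tumors it stood at 432 in primary CR1, 69.6 in primary CR2, 63.5 in metastatic CR1 and 15.2 in metastatic CR2. Primary CR1 had the highest value of the 8 tumors and the other CR tumors the lowest values.

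Of the 15 squamous keratins, Krt4, Krt78 and Krt80 made up most of the level. Krt4, the type II keratin of mucosal stratified epithelium, stood at 6.38 CPM in primary AS1, 23.9 in primary AS2, 14.4 in metastatic AS1 and 29.9 in metastatic AS2, and at 81.9 in primary CR1, 32.4 in primary CR2, 18.9 in metastatic CR1 and 253 in metastatic CR2. Metastatic CR2 held the highest value, and metastatic CR1 lay within the AS range. Krt78, a type II keratin, stood at 6.16 CPM in primary AS1, 36.6 in primary AS2, 14.4 in metastatic AS1 and 24.9 in metastatic AS2, and at 100.8 in primary CR1, 77.0 in primary CR2, 60.2 in metastatic CR1 and 113 in metastatic CR2, with no overlap between phenotypes. Krt80 ranged from 11.1 to 20.1 CPM in AS and from 5.64 to 14.2 CPM in CR tumors.

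The remaining named squamous members were near the limit of detection. Krt1 had at most 2 counts, Krt13, the usual partner of Krt4, had 4 to 54, Krt16 had 0 to 17 and Krt17 had 1 to 17. Krt10, the partner of Krt1 in suprabasal epidermis, had 2, 0, 0 and 9 counts in primary AS1, primary AS2, metastatic AS1 and metastatic AS2. It had 23, 7, 16 and 11 counts in primary CR1, primary CR2, metastatic CR1 and metastatic CR2. After scaling for library size, the Krt10 values of the phenotypes did not overlap. Outside the rule, the hyperproliferation keratins were more abundant: Krt6a had 5 to 1588 counts and Krt6b 15 to 1197, with 63.7% and 56.0% of their read-length windows shared with other annotated transcripts.

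The hair and nail keratins and the root sheath keratins together stayed under 5 CPM per kilobase in every tumor. Krt81, a type II hair keratin, had 26, 103, 35 and 40 counts in primary AS1, primary AS2, metastatic AS1 and metastatic AS2, against 7, 1, 1 and 1 in primary CR1, primary CR2, metastatic CR1 and metastatic CR2. Krt83 and Krt86, type II hair keratins chosen after their values were seen, had 54 to 153 and 3 to 32 counts in AS tumors, and 9 to 15 and 0 to 2 counts in CR tumors. After scaling for library size, Krt83 ranged from 0.684 to 2.18 CPM in AS and from 0.182 to 0.694 CPM in CR tumors, which overlapped. Krt86 ranged from 0.0479 to 0.456 CPM in AS and from 0 to 0.0419 CPM in CR tumors. Neither was called in the edgeR test between phenotypes given below (adjusted p = 0.0756 and 0.0961). These genes are near copies of each other: 51.4% of the windows of Krt81, 30.5% of those of Krt83 and 51.9% of those of Krt86 matched another annotated transcript, so their separate counts are uncertain. The identifier that the files call Krt83 is named Krt87 in GENCODE M21.

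Summed over members, luminal keratins took 17.8% to 35.3% of the keratin level per length in AS tumors and 45.95% to 72.1% in CR tumors. Basal keratins took 46.03% to 62.5% in AS tumors. In CR tumors they took 30.8% in primary CR1, 15.6% in primary CR2, 11.6% in metastatic CR1 and 2.57% in metastatic CR2. Squamous keratins took 6.60% to 9.89% in AS tumors, 8.85% to 15.99% in the first 3 of these CR tumors and 45.9% in metastatic CR2, where Krt4 alone took 35.0%. The largest single member per length was Krt15 in all 4 AS tumors and Krt8 in all 4 CR tumors. In primary AS1 this order depends on the length used. Before division by length, Krt7 had 208 CPM there and Krt15 had 88.7 CPM. The exon length of Krt7 was 7049 bases, while its longest transcript had 4094 bases. Type I keratins, which a filament needs in equal amount, took 47.9% to 64.0% of the level in AS tumors, 40.3% in primary CR1 and 6.60% to 21.6% in the other CR tumors.

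**Figure D2:**
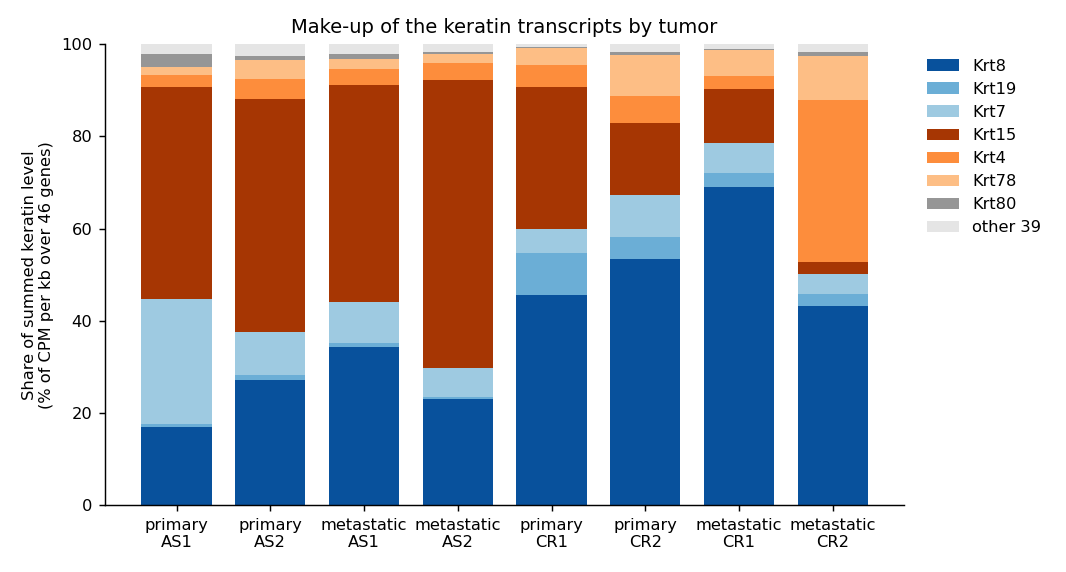
Share of the summed keratin level taken by each gene (y axis, percent of CPM per kilobase over the 46 genes) in each of the 8 tumors (x axis). Blue shades are luminal and other simple keratins, brown is Krt15, orange shades are Krt4 and Krt78, dark grey is Krt80 and light grey the other 39 genes. Krt15 takes 45.99% to 62.4% in AS tumors, and Krt8 takes 43.3% to 69.0% in CR tumors.

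The log2 ratio of the luminal level to the summed basal and squamous level stood at -1.59 for primary AS1, -1.10 for primary AS2, -0.62 for metastatic AS1 and -1.55 for metastatic AS2. It was 0.46 in primary CR1, 0.88 in primary CR2, 1.8 in metastatic CR1 and -0.08 in metastatic CR2. Its mean was 0.77 ± 0.79 (SD, n = 4) in CR and -1.21 ± 0.46 (SD, n = 4) in AS tumors, a difference of 1.98, and the ranges did not overlap. Without primary CR1 the difference was 2.08. Against the basal keratins alone the difference was 3.39. Against the squamous keratins alone, an alternative added after the data were seen, it was only 0.15, less than the spread between tumors (mean 1.87 ± 1.33 in CR and 1.73 ± 0.47 in AS tumors, SD, n = 4). Metastatic CR2 had the lowest of these ratios, at 0.00, and without it the difference was 0.77. The mean was -0.11 ± 1.41 (SD, n = 4) in metastatic and -0.34 ± 1.19 (SD, n = 4) in primary tumors, a difference of 0.23 that was smaller than the spread between tumors. A ratio over members was not tested.

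To ask which keratins differed with phenotype, the CR and AS tumors were compared in edgeR (quasi-likelihood test, tumor type as a covariate, Benjamini-Hochberg adjustment over all 18889 genes tested). Of the 24 members that passed the low-count filter, 5 had an adjusted p-value under 0.05, against 10.1% of all genes tested. Krt19, Krt10, Krt20 and Krt78 were higher in CR tumors (background 4.76%) and Krt81 was lower (background 5.29%). The groups did not overlap for 6 of the 24 members, against 17.7% of all genes. These were Krt8, Krt10, Krt19 and Krt78 with higher values in CR tumors (background 8.64%) and Krt81 and Krt86 with lower values (background 9.04%). An unadjusted p under 0.05 was found for 10 members, against 27.1% of all genes. The median log2 fold change of the 24 members was -0.05, beside 0.00 over all genes. The members that passed the filter may have passed it through the group where they were high. Of the called members, Krt10 had at most 0.0882 CPM and Krt20 at most 0.200 CPM in AS tumors, and Krt81 at most 0.0848 CPM in CR tumors. The counts of members called or not overlapping therefore do not measure how often keratins differ between phenotypes.

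By class, 1 of the 3 tested luminal members passed the test as higher, 1 of 2 other simple, 0 of 2 basal and 2 of 9 squamous members did so, and 1 of 6 hair and nail members passed as lower. No root sheath keratin passed the filter. The log2 fold change was 3.64 ± 0.74 (SE) for Krt19 (adjusted p = 0.0208), 3.597 ± 0.95 for Krt10 (adjusted p = 0.0447), 3.44 ± 0.92 for Krt20 (adjusted p = 0.0462), 2.07 ± 0.48 for Krt78 (adjusted p = 0.0316) and -3.61 ± 0.60 for Krt81 (adjusted p = 0.0112), all by edgeR's quasi-likelihood test. Krt8 had a log2 fold change of 1.84 ± 0.50 (SE) and missed the threshold narrowly (adjusted p = 0.0501, edgeR). Krt4 had 2.24 ± 0.74 (adjusted p = 0.0898, edgeR). Krt18 had -0.79 ± 0.45 (adjusted p = 0.292), Krt7 0.01 ± 0.24 (adjusted p = 0.992) and Krt80 -0.77 ± 0.31 (adjusted p = 0.145) in the same test. Among low members, Krt14 had -0.66 ± 0.71, Krt13 0.68 ± 0.62, Krt16 -0.23 ± 0.87 and Krt17 1.27 ± 0.93, and Krt5 and Krt1 did not pass the filter. Outside the rule, Krt6a had 0.85 ± 0.84 and Krt6b 0.89 ± 0.69, with adjusted p-values of 0.558 and 0.440.

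The value of Krt15 depended on single tumors. Krt15 had a log2 fold change of -1.11 with all tumors (adjusted p = 0.515, edgeR) and -2.22 ± 0.63 (SE) without primary CR1 (adjusted p = 0.0394). Leaving out primary AS1 gave -1.91, metastatic AS2 -0.56, metastatic CR1 -0.72 and metastatic CR2 -0.31, none of them called. Without primary CR1 the test called 6 of 29 members (20.7%), near the 18% of all genes called in that fit. Krt19 then had 2.65 ± 0.39 (adjusted p = 0.00277, edgeR) and Krt8 1.31 ± 0.39 (adjusted p = 0.0469). Krt4 had 1.14 ± 0.69 without metastatic CR2. Krt10, with few counts, lost its call with any 1 of the 8 tumors left out, and Krt20 with any tumor left out but primary CR1. Krt19 lost its call without metastatic AS1, primary AS2 or metastatic AS2 (adjusted p of 0.0546 to 0.0686, edgeR), with log2 fold changes of 3.66 to 3.80, and Krt81 without primary AS2 (adjusted p = 0.0571). Krt78 lost its call with any of 5 tumors left out, namely metastatic AS1, metastatic AS2, metastatic CR1, primary CR2 and metastatic CR2 (adjusted p of 0.0586 to 0.105, edgeR). Calls differed between the fits within each tumor type, but calls in fits of 2 against 2 cannot show that the types differ. The interaction of tumor type and phenotype was called for 0 of 24 members by edgeR. In metastatic tumors alone, 2 against 2, Krt19 (2.59 ± 0.22, adjusted p = 0.00681, edgeR) and Krt78 (2.15 ± 0.40, adjusted p = 0.0447) were called, with 5.49% of all genes. In primary tumors alone, also 2 against 2, edgeR called 0 of 21 members and 0.0233% of all genes. Unadjusted p-values under 0.05 numbered 7 among these 21 members and 1797 among all 17180 genes tested.

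**Figure D3:**
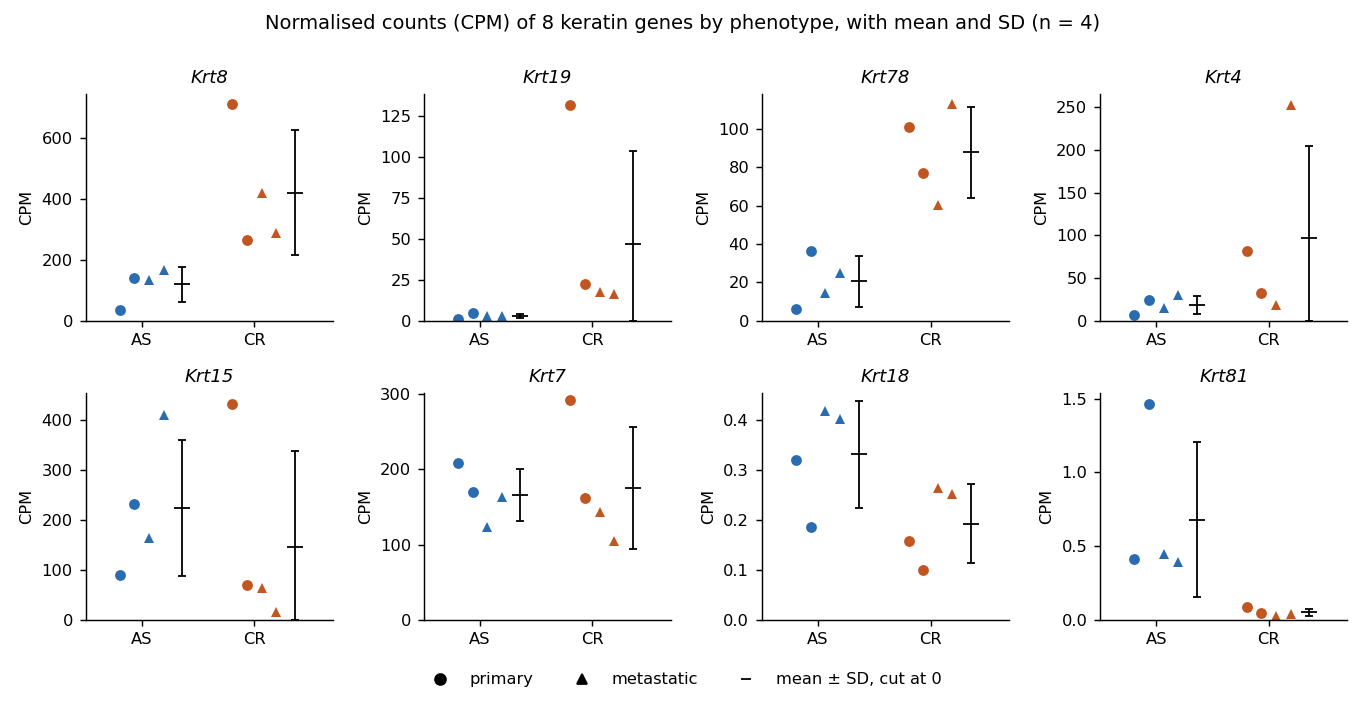
CPM (y axis) of 8 keratin genes in AS and CR tumors (x axis), with 1 point per tumor, circles for primary and triangles for metastatic tumors, and bars for the mean and SD of 4 tumors, with bars below 0 cut at 0. Krt8, Krt19 and Krt78 do not overlap between phenotypes and are higher in CR tumors, Krt81 is lower, and Krt15 and Krt7 overlap.

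To ask whether keratins differed between metastatic and primary tumors, the groups of 4 were compared by the same test with tumor type as the only term over 17104 genes. None of the 21 members tested was called (0 by edgeR, 0 by DESeq2 and 0 by limma-voom), against a background of 0% of all genes tested. An unadjusted p under 0.05 was found for 2 members (2.68% of all genes), and the median log2 fold change was -0.10 over the members and -0.03 over all genes. The members with the smallest p-values were Krt31, a type I hair keratin, at 1.79 ± 0.65 (SE) on the log2 scale, Krt7 at -0.64 ± 0.24 and Krt18 at 0.78 ± 0.45, each with an adjusted p of 0.997 by edgeR. Krt31 was the only tested member whose groups did not overlap (background 1.7%, or 0.854% for higher values in metastatic tumors). It had 18, 16, 16 and 4 counts in metastatic AS1, AS2, CR1 and CR2, and 4, 8, 6 and 0 in primary AS1, AS2, CR1 and CR2. These counts are low, and 37.8% of its windows matched other annotated transcripts.

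The luminal keratins gave no common direction between metastatic and primary tumors. Krt8 had a mean of 252 ± 130 CPM in metastatic and 287 ± 297 CPM in primary tumors (SD, n = 4), and Krt19 had 9.87 ± 8.16 and 40.1 ± 62.1 CPM. The log2 fold change was -0.19 ± 0.74 (SE) for Krt8 and -2.03 ± 1.25 for Krt19 in edgeR's fit. Without primary CR1 these values were 0.78 and 0.08. The sign of Krt8 also turned with all tumors kept, to 0.16 with phenotype as a covariate. For Krt15 the log2 fold change was -0.34 ± 0.88, and for Krt4 it was 1.13 ± 1.002, with metastatic CR2 as the highest tumor.

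**Figure D4:**
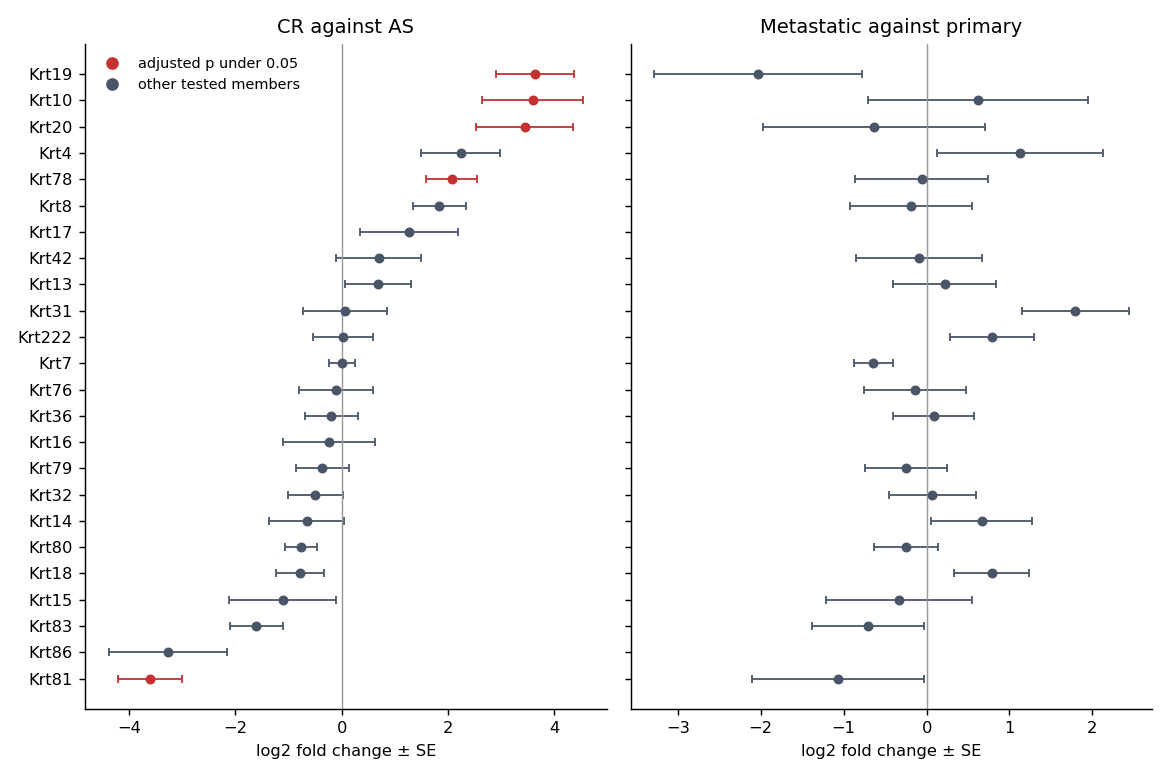
Log2 fold change with its SE (x axis, edgeR) of each of the 24 keratin genes tested between phenotypes (y axis), for CR against AS tumors on the left and metastatic against primary tumors on the right, where 3 of these genes were not tested. Red points have an adjusted p under 0.05, which holds for 5 genes on the left and for 0 on the right.

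The interaction of tumor type and phenotype was called for 0 of 24 members by edgeR and 0 by DESeq2, against a background of 0% of all 18889 genes by edgeR. An unadjusted p under 0.05 was found for 1 member (2.74% of all genes). That member was Krt15, with an interaction of -3.53 ± 1.37 (SE) on the log2 scale and an adjusted p of 0.964 by edgeR. Its value was higher in metastatic than in primary tumors in the means of the AS tumors and lower in those of the CR tumors. The next smallest p-values belonged to Krt19 (-2.18 ± 1.15) and Krt36, a type I hair keratin (-1.35 ± 0.93).

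Lists of genes related to keratin filaments were then examined. Desmosomes anchor keratins at cell junctions. None of the 8 desmosomal genes tested between phenotypes was called (background 10.1%), and the smallest p-values were those of Pkp2 (log2 fold change -0.59, adjusted p = 0.0535, edgeR) and Pkp1 (2.08, adjusted p = 0.134). Jup had 1100 to 5691 counts and Perp 1287 to 9335. The keratin-binding desmoplakin gene Dsp had only 1 to 45 counts and the desmosomal cadherin gene Dsg2 0 to 18.

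Of 6 genes in the list named keratin-binding, 3 were called between phenotypes (background 10.1% of all genes, 4.76% higher and 5.29% lower). Pof1b, an actin-binding protein of epithelial junctions, had 0.590 CPM in primary AS1, 2.77 in primary AS2, 2.90 in metastatic AS1 and 1.60 in metastatic AS2. It had 235 CPM in primary CR1, 132 in primary CR2, 223 in metastatic CR1 and 179.7 in metastatic CR2, a log2 fold change of 6.60 ± 0.53 (SE, adjusted p = 0.000667, edgeR). The plakins Evpl and Ppl, which link keratins to the cornified envelope and to desmosomes, were lower in CR tumors. Evpl ranged from 18.7 to 30.8 CPM in AS and from 8.72 to 12.0 CPM in CR tumors (-1.27 ± 0.19, adjusted p = 0.00776, edgeR). Ppl ranged from 83.7 to 117 CPM in AS and from 46.9 to 52.8 CPM in CR tumors (-1.06 ± 0.16, adjusted p = 0.00814, edgeR).

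Of 8 hemidesmosome and basement membrane genes tested, only Lamb3, a laminin-332 chain, was called (background 10.1%), with a log2 fold change of -2.60 ± 0.63 (SE, adjusted p = 0.0348, edgeR). Lamb3 ranged from 2.12 to 6.37 CPM in AS and from 0.0991 to 1.08 CPM in CR tumors. None of the 3 cornified envelope genes that could be tested, of 13 listed identifiers, was called, and Flg (2.12, adjusted p = 0.334, edgeR) and Cdsn (-0.37, adjusted p = 0.549) had the smallest p-values. Of 10 other intermediate filament genes tested, Gfap was called at 1.88 ± 0.49 (adjusted p = 0.0436, edgeR), from 14 to 106 counts per tumor. Vim, the filament of mesenchymal cells, had 843 to 9083 counts and a log2 fold change of -0.49 ± 0.21 (adjusted p = 0.166, edgeR).

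Between metastatic and primary tumors 0 of 5 desmosomal, 0 of 8 hemidesmosomal, 0 of 6 keratin-binding, 0 of 2 cornified envelope and 0 of 9 other filament genes were called by edgeR. Genes with small p-values in these lists were Pkp1 (log2 fold change 1.29) and Jup (-0.26), Cd151 (-0.26), Fam83h (-0.38) and Sfn (0.26), Tgm1 (-0.52) and Cdsn (-0.06), and Lmnb1 (0.81) and Vim (0.73). The unadjusted p was 0.0175 for Lmnb1 and 0.0191 for Vim in edgeR's fit, and their adjusted p was 0.997.

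The prostate label was checked against marker lists. The luminal markers Foxa1 and Hoxb13, transcription factors of prostate epithelium, had 1674 to 6609 and 126 to 3924 counts. Of the epithelial adhesion genes in the list, Epcam had 0 to 22 counts and Cdh1, the E-cadherin gene, 3 to 38. The luminal list had 8 genes tested between phenotypes. Among the luminal markers reported here, Krt19 was the only call (background 10.1% of all genes, 4.76% for higher values).

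The summed prostate basal list was 116 to 424 CPM in AS and 19.2 to 442 CPM in CR tumors, set mainly by Krt15. Of its 5 tested genes, 2 were lower in CR tumors by edgeR (background 5.29%), namely Lamb3 and Trp63, the gene of the basal transcription factor p63 (log2 fold change -1.82 ± 0.43 (SE), adjusted p = 0.0319). Trp63 stood at 3.32 to 3.99 CPM in AS and 0.248 to 1.63 CPM in CR tumors. The squamous list was 10.1 to 41.3 CPM in AS and 34.6 to 273 CPM in CR tumors, set mainly by Krt4, which had 253 CPM in metastatic CR2. Krt10, at no more than 0.468 CPM, was the only call among its 7 tested genes (background 4.76% for higher values). Lor, Ivl and Sprr3 had 0 to 6 counts.

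The remaining marker lists ranged from scarce (lung, under 0.47 CPM) to abundant (leukocyte, 160.1 to 387 CPM). Their calls between phenotypes stand beside the same background of 10.1%. The prostate secretory list was 4.32 to 14.9 CPM in AS and 4.12 to 6.16 CPM in CR tumors, with the highest value in primary AS1. Msmb was lower in CR tumors (1 of 3 tested). It had 420 counts in primary AS1, 14 to 50 in the other AS tumors and 0 to 2 in CR tumors. Pbsn had 34 counts in primary AS1 and was at 0 in 6 tumors. The urothelial list was 2.999 to 15.6 and 1.05 to 6.20 CPM, with Upk3a higher (1 of 3), with 146 counts in primary CR1, 53 in metastatic CR1 and at most 3 elsewhere. The hepatocyte list was 3.73 to 25.8 and 5.26 to 7.53 CPM, with Ttr lower (1 of 2). The mesothelial list, nearly all Msln, was 79.0 to 255 and 105 to 308 CPM, and none of its 4 genes was called. It was highest in primary CR1, as were the basal, intestinal and skeletal muscle lists and Krt7, Krt8, Krt15 and Krt19. The intestinal (1.63 to 2.21 and 1.98 to 5.16 CPM), fibroblast (36.2 to 58.5 and 35.6 to 82.3), endothelial (34.7 to 78.0 and 34.7 to 71.3), leukocyte (237.5 to 387 and 160.1 to 352) and skeletal muscle lists (0.973 to 4.59 and 0.545 to 14.1) gave 0 calls by edgeR, and the lung list stayed under 0.47 CPM. Between metastatic and primary tumors 0 genes of any marker list were called by edgeR. The part of these cell types in the keratin differences was not tested.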

How the data were processed

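The values analysed were the raw counts per Ensembl gene that the authors deposited for 8 Myc-CaP tumors, with no normalization. Per the methods, ribosomal RNA was depleted from total RNA, stranded paired-end libraries of 101 bases were sequenced, and reads were mapped to mm10 with Bowtie, keeping a single location and up to 2 mismatches. The submitters' processing notes name TopHat2 2.0 and CASAVA 1.8.2. The counting tool and the annotation release are not given in the sources used here. Coordinates and lengths came from GENCODE M21 (36343 of 38115 identifiers matched) and start regions from RefSeq.

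Tests were run in R 4.3.3 with edgeR 4.0.16 (quasi-likelihood, TMM, filterByExpr, Benjamini-Hochberg adjustment, threshold 0.05), with DESeq2 1.42.0 and limma 3.58.1 as alternatives. The filter left 17104 genes by tumor type and 18889 by tumor type and phenotype. Scripts were tested on simulated data. Levels per length used exon lengths, and the luminal ratio a pseudocount of 0.01 on each sum. Shared sequence was searched in windows of 101 bases of the longest transcript. Figures were drawn with matplotlib 3.10.9.

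The members and all gene lists were chosen with earlier results of these data known. The members named were a set list of 15 keratins, members called in a fit and the 3 with the smallest p in each fit. Partner genes named were those called, up to 4 a list, or otherwise the 2 with the smallest p. Alternatives changed the test, scaling, filter, covariates and tumors, and left out each of the 8 tumors. Totals of 20905806 to 91886163 counts leave little counting error for abundant keratins, while members under 100 counts are imprecise. Some listed marker and partner genes are not reported here. The human data, quantitative PCR and drug experiments were not used here.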

Additional observations from a re-analysis of the deposited data

Results flagged for a closer look

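Among 68 groups of 4 tumors examined for the named keratins, a tumor stood far from the other 3 in 7 cases, by Dixon's criterion for the gap to the nearest tumor as a share of the range. Chance flags about 1 in 20 such groups, and groups by tumor type and by phenotype share tumors. Primary CR1 accounted for 3 of them: Krt19 at 132.2 CPM was far from the other primary tumors and from the other CR tumors (next 22.25 in both), and Krt15 at 431.8 CPM was far from the other CR tumors (next 69.56). Metastatic CR2 was far from the other metastatic tumors for Krt4 at 253.0 CPM (next 29.88) and for Krt17 at 0.7116 CPM (next 0.09799). Krt20 at 1.784 CPM in primary CR2 was far from the other primary tumors (next 0.1996), and Krt81 at 1.468 CPM in primary AS2 from the other AS tumors (next 0.4433).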

How the results depend on the processing

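Between metastatic and primary tumors 0 members were called in all 20 alternatives. The labels do not say which metastasis matches which primary tumor, so the 4 ways of pairing them inside the phenotypes were tried, each as a replicate block: 0 members were called in each, and Krt8 turned to 0.36, 0.39, 0.33 and 0.36 on the log2 scale. Krt8 also turned to 0.16 with phenotype as a covariate, to 0.79 in AS tumors alone and to values between -0.57 and 0.78 with 1 tumor left out, and Krt19 ranged from -2.45 to 0.08. Between phenotypes the count of 5 of 24 members (20.8%, beside 10.1% of all genes) became 8 of 24 with DESeq2 (33.3%, beside 18.8%), 11 of 46 without a low-count filter (23.9%, beside 9.72%), 0 of 21 in primary tumors (beside 0.0233%) and 2 of 20 in metastatic tumors (10%, beside 5.49%), and 1 to 6 with 1 tumor left out, when 1.9% to 18% of all genes were called. It was 1 without metastatic AS1, primary AS2 or metastatic AS2, 2 without primary CR2, and 3 without primary AS1, metastatic CR1 or metastatic CR2. DESeq2, RLE factors, no filter and scaling without mitochondrial, ribosomal RNA and Lars2 counts kept all 5 members, and limma-voom and the fit without the covariate kept 4. Krt8 passed the threshold in 7 of 16 alternatives. Krt19 lost its call in 4, Krt78 in 6 (among them without metastatic AS1, metastatic AS2, metastatic CR1, primary CR2 or metastatic CR2), Krt10 in 10, Krt20 in 11 and Krt81 in 3. Krt7 turned to -0.05 without a filter, -0.04 with limma-voom, -0.20 in metastatic tumors and -0.29 to 0.14 with 1 tumor left out, and Krt15 to 0.65 in primary tumors. Without a filter the interaction was called for 2 of 46 members (4.35%, beside 0.681% of all genes). The luminal ratio difference between phenotypes was 3.39 against basal keratins alone, 0.15 against squamous keratins alone (0.77 with metastatic CR2 also left out, both added after the data were seen) and 1.64 to 2.26 with 1 tumor left out. That between metastatic and primary tumors ranged from -0.41 to 0.70 with 1 tumor left out and was 1.11 against basal and -0.02 against squamous keratins alone. The cause of these changes was not tested. Over all genes, the calls between phenotypes ranged from 399 to 3784 with 1 tumor left out.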
